A study of Arabidopsis thaliana with 4 samples.

Results

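AT5G38910, a germin-like gene, and AT5G38900, a gene for a DSBA-type oxidoreductase, lie beside each other on chromosome 5 of Arabidopsis, and both had a higher signal in roots co-cultivated with the fungus P. indica than in mock-treated roots. They were chosen by their locus codes, through the probe sets that the platform annotation assigns to a single gene, and with their ratios at 2 d and 6 d already known. They are 2 of the 13333 genes that have such a probe set. Each has 1 probe set, 249476_at for AT5G38910 and 249481_at for AT5G38900, and neither probe set carries a suffix for cross-hybridization. The gene tables used here give both genes by their locus codes without a further symbol.

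Wild-type seedlings (ecotype Columbia-0) grew on a membrane beside an agar plug with P. indica mycelium, or beside a plug without hyphae (mock), and RNA of the roots was read on ATH1 arrays, on which sets of short probes (probe sets) read each gene. The 4 arrays analysed hold roots exposed to P. indica and mock-treated roots after 2 d, from seedlings that the labels give as 12 d old, and the same 2 conditions after 6 d, given as 16 d old. There is 1 array per condition, so no difference has an error or a p-value, and whether the 3 experiments named in the paper were pooled on these arrays is not given in any source at hand. After 2 d fungus and roots had no contact in this system, whereas hyphae had reached the roots after 6 d.

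Germins and germin-like proteins are glycoproteins of the plant cell wall with a metal-binding barrel fold, the cupin fold. The germins of wheat and barley are oxalate oxidases that release H2O2 from oxalate, and some germin-like proteins have superoxide dismutase activity, so that the family is linked to H2O2 in the wall and to defense against fungi in cereals. The family is large, and many of its genes stand in tandem arrays. DsbA of Escherichia coli is a thiol oxidoreductase with a thioredoxin fold that introduces disulfide bonds into secreted proteins, and plant proteins with this domain are named after it.

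The values are the authors' MAS5 signals, a linear intensity. Signals under 22.2, the mean of the 40th percentiles of the 4 arrays, were treated as a floor, and a probe set was counted in a comparison if its brighter array lay above this floor. At 2 d, the signal of AT5G38910 was 5.9 on the mock array and 547 on the exposed array. At 6 d the mock signal was 81.1 and the exposed signal 436. Thus the gene lay under the floor on the 2 d mock array and was well above it on the other arrays. Among all 22746 probe sets of an array, this corresponds to percentile 23.6 on the 2 d mock array and 94.8 on the 2 d exposed array, a position that does not depend on the scale of the array. At 6 d the percentiles were 66.5 and 93.2.

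For AT5G38900, the mock array gave a signal of 29.6 and the exposed array one of 176 at 2 d. At 6 d the signals were 64.7 and 146, respectively. All 4 values lay above the floor, the 2 d mock value by the smallest margin, and both exposed arrays were brighter than both mock arrays. The corresponding percentiles were 44.4 and 82.6 at 2 d and 61.2 and 79.5 at 6 d. For both genes the order of the 4 arrays was the same, with the lowest signal in 2 d mock, followed by 6 d mock, 6 d exposed and 2 d exposed roots.

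**Figure D1:**
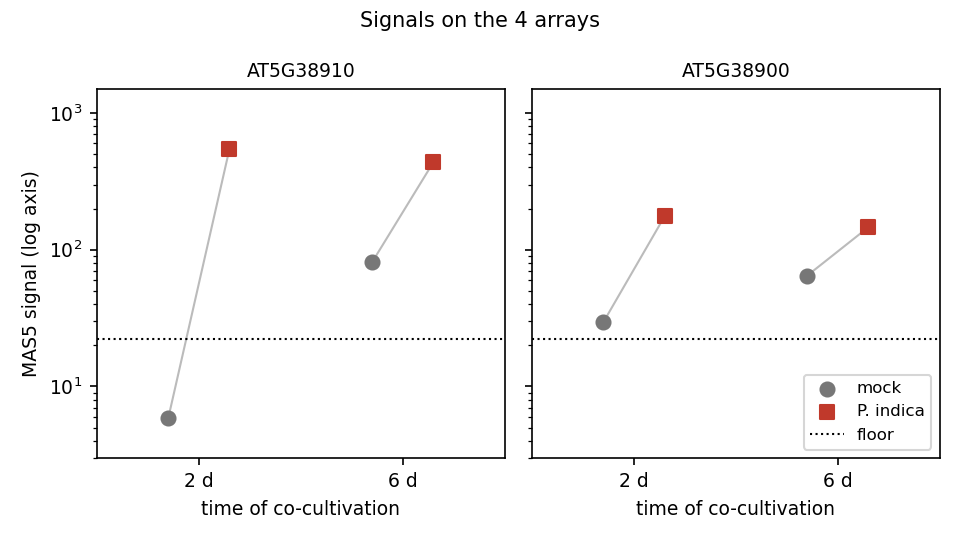
MAS5 signals (log axis) of AT5G38910 and AT5G38900 on the 4 arrays, 1 array per point, with mock-treated roots as grey circles and P. indica-exposed roots as red squares at 2 d and 6 d, and the floor of 22.2 as a dotted line. The exposed signals of each gene are similar at both times, while the mock signals are higher at 6 d (81.1 and 64.7) than at 2 d (5.9 and 29.6).

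With the mock signal set to the floor, exposed roots exceeded mock roots for AT5G38910 by at least 24.6-fold at 2 d, and the quotient of the signals as deposited was 92.6. At 6 d it was 5.37-fold higher. These were the highest ratios among the 14118 probe sets counted at 2 d and the 14029 counted at 6 d. For AT5G38900 the difference was 5.93-fold at 2 d, position 13 of all counted probe sets, and 2.26-fold at 6 d, position 47. More than 3-fold higher signals were found for 0.29% of the counted probe sets at 2 d and for 0.107% at 6 d, and more than 2-fold higher signals for 0.456% at 6 d. Both genes passed 3-fold at 2 d and AT5G38910 alone did so at 6 d. The paper, with a 3-fold limit and its own processing, discusses AT5G38900 among the genes regulated at both times. The 2.26-fold difference found here at 6 d lies below that limit. As the genes were proposed for these ratios, the positions describe the choice and carry no further weight. For comparison, the log2 ratios of the middle 95% of counted probe sets ran from -0.58 to 0.60 at 2 d and from -0.51 to 0.56 at 6 d.

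On the log2 scale the ratio of AT5G38910 was at least 4.62 at 2 d and 2.42 at 6 d, and that of AT5G38900 was 2.57 and 1.18. The ratio of AT5G38910 exceeded that of AT5G38900 by at least 2.05 at 2 d and by 1.25 at 6 d. Both genes therefore had the larger ratio at the time without contact, and AT5G38910 had the larger ratio of the pair at both times. The size of the 2 d ratios depends on how signals near the background are treated: with a floor at the 60th percentile of the arrays, 61.4, AT5G38910 was at least 8.90-fold and AT5G38900 at least 2.86-fold higher, the latter no longer past 3-fold. When 32 was added to all signals and no floor was set, the 2 d ratio of AT5G38910 was 15.3-fold.

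**Figure D2:**
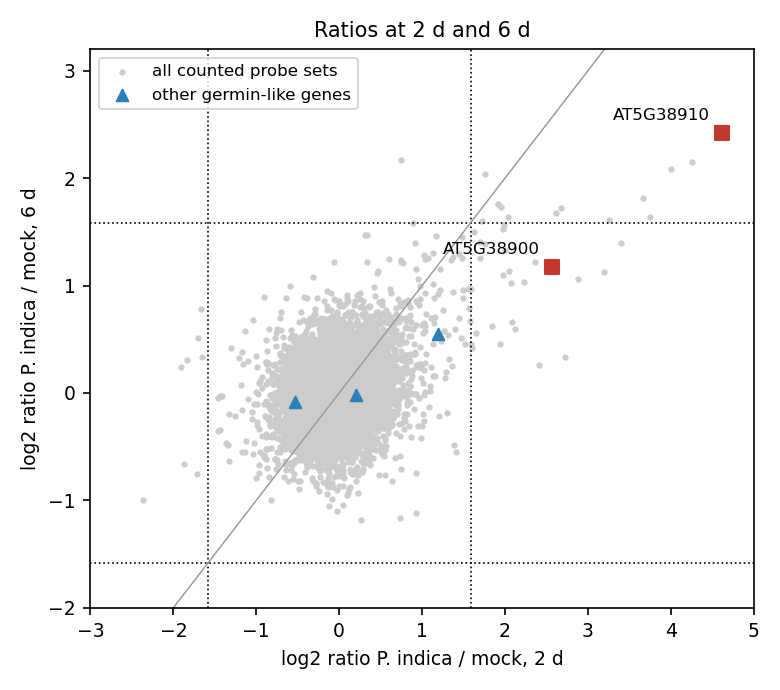
Log2 ratio of P. indica-exposed over mock-treated roots at 2 d (x axis) and 6 d (y axis) for all probe sets counted at both times (grey), AT5G38910 and AT5G38900 (red squares) and the other germin-like genes (blue triangles), with dotted lines at 3-fold and a diagonal of equal ratios. Both red squares lie below the diagonal, at 4.62 and 2.42 for AT5G38910 and at 2.57 and 1.18 for AT5G38900.

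Between the times, the mock signals of both genes were higher at 6 d, and the exposed signals were slightly lower. The mock signal of AT5G38910 was under the floor at 2 d and 81.1 at 6 d, a difference of at least 3.65-fold, or 1.87 on the log2 scale. Its signal in exposed roots was 1.25-fold lower at 6 d, a log2 difference of -0.33. Mock roots differed in the same direction for AT5G38900, with a 2.19-fold higher signal at 6 d (1.13 on the log2 scale), and exposed roots had a 1.20-fold lower signal (-0.26). The log2 ratio at 2 d exceeded that at 6 d by at least 2.20 for AT5G38910 and by 1.39 for AT5G38900, the sum of the differences on the mock and on the exposed arrays. Under the 40th percentile floor the mock arrays gave the larger part for both genes. Under the higher floor (60th percentile), applied to this split after the data were seen, the mock part was at least 0.40 for AT5G38910 and at least 0.08 for AT5G38900, so that for AT5G38900 the exposed part of 0.26 was larger than this bound. The 2 d mock array enters both the 2 d ratio and the mock difference, so these quantities are not independent.

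Mock signals more than 3-fold higher at 6 d than at 2 d were found for 0.19% of 14242 counted probe sets, and more than 2-fold higher ones for 1.12%. AT5G38910 belonged to the first group, with a difference that is a bound set by the floor, and AT5G38900 to the second, at position 100. The middle 95% of the log2 differences ran from -0.97 to 0.81 between the mock arrays and from -1.04 to 0.94 between the exposed arrays. Hence both genes lay beyond this range for the mock arrays and within it for the exposed arrays.

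The arrays of the 2 time points differed in other respects as well. All 18 probe sets of the hybridization controls, transcripts spiked in at known amounts, were brighter at 6 d, by a median log2 difference of 0.54 between the mock and 0.59 between the exposed arrays, and their medians differed by 0.07 within 2 d and by 0.10 within 6 d. On the log2 scale, the 75th percentiles of the arrays spanned 0.03. The part of the hybridization in the time difference was not tested.

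According to the labels the tissue was root. Of 12 listed root genes 3 have a named probe set, and all 3 were above the floor on every array, among them the root beta-glucosidase gene PYK10 (AT3G09260) with signals of 3098, 3542, 3864 and 4468 on the 2 d mock, 2 d exposed, 6 d mock and 6 d exposed arrays. The root hair expansin gene EXPA7 (AT1G12560) had signals of 202, 281, 150 and 163 in the same order. Of 18 listed genes of green shoot tissue 3 have a named probe set, and their summed signal was 403, 294, 510 and 739. RCA (AT2G39730) and LHCB4.1 (AT5G01530) were above the floor on every array. PRK (AT1G32060) was under it on the 2 d exposed array, with 16.3, and close to it on the 2 d mock array, with 22.3. The summed shoot signal was lower in exposed than in mock roots at 2 d and higher at 6 d, whereas AT5G38910 and AT5G38900 were higher in exposed roots at both times. In such RNA from whole organs a change in the share of a cell type and a change in the RNA per cell cannot be told apart.

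The germin-like family was described from a list of 32 genes. Of these, 12 have a single-gene probe set. The other 20 have none in the annotation used here, so the counts cover only part of the family. The paper names At1g18970, a germin-like gene that is not among the 12, as up-regulated after 2 d. It also names a germin-like gene, given without a locus code, as regulated at both times. Of the 12 genes, 8 stayed under the floor on all 4 arrays, with no signal above 13.0. The 4 counted genes were AT5G38910, AT1G18980, AT3G05950 and AT3G10080. The mock and exposed signals of AT1G18980 were 268 and 614 at 2 d, and 396 and 581 at 6 d. This gives a 2.29-fold difference at 2 d, one of 2 counted genes of the list past 2-fold, against 0.737% of all counted probe sets. The second of these is AT5G38910, for which the list was made, so this count is not an independent description of the family. At 6 d AT1G18980 was 1.47-fold higher. As for AT5G38910, its mock signal was higher at 6 d, by 1.48-fold, whereas the exposed signals of both times differed by 1.06-fold.

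The other 2 germin-like genes gave no ratio of this kind. AT3G05950 had signals of 51.0 and 35.3 at 2 d and of 26.2 and 24.7 at 6 d, in mock-treated and exposed roots, respectively. The former pair gives a log2 ratio of -0.53, and the later values lie close to the floor. AT3G10080 had signals between 78.3 and 100.2 on the 4 arrays, with log2 ratios of 0.20 and -0.01. Over the 4 genes the median log2 ratio was 0.70 at the earlier and 0.27 at the later time, beside -0.03 and -0.02 over all counted probe sets. AT5G38910, for which the list was made, is one of the 4, so the median is not an independent description of the family.

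Some germin-like genes share a probe set, from which no single gene can be named. A probe set common to 4 germin-like genes of the list gave mock and exposed signals of 7.5 and 46.6 at 2 d, and of 102 and 244 at 6 d. The ratio was at least 2.10-fold at the earlier and 2.38-fold at the later time. Unlike AT5G38910, its exposed signal was also higher at the later time, by a log2 difference of 2.39, and so was its mock signal, by at least 2.20. A further probe set common to 2 germin-like genes, both within the 10 genes that follow AT5G38910 on the chromosome, had signals of 90.2 and 146 at 2 d and of 41.3 and 51.5 at 6 d. Exposed roots exceeded mock roots by 1.62-fold at 2 d and by 1.25-fold at 6 d, and both conditions were lower at 6 d. The third shared probe set, also of 2 genes, stayed under the floor. The time course of the signals therefore differed among these probe sets. The ratio was above 1 at both times for AT5G38910, AT1G18980 and both shared probe sets above the floor. It was below 1 at both times for AT3G05950 (log2 -0.53 and -0.09) and at 6 d for AT3G10080 (-0.01). The share of all counted probe sets with a ratio above 1 at both times was not computed, and AT5G38910 was chosen with its ratios known.

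**Figure D3:**
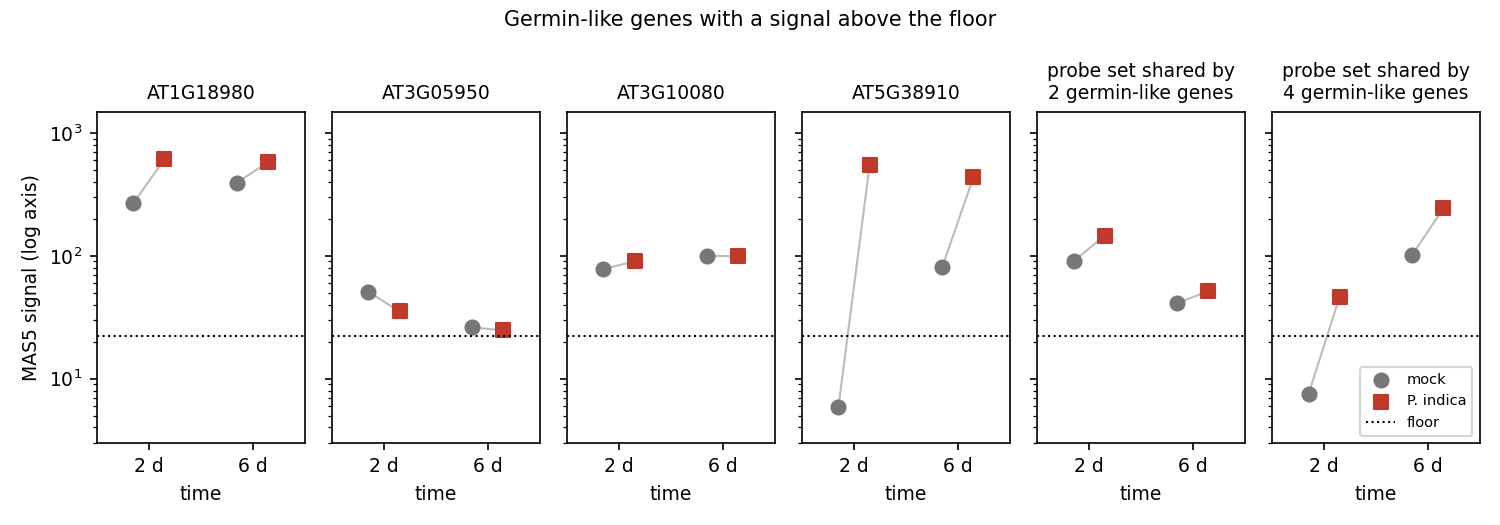
MAS5 signals (log axis) at 2 d and 6 d of the 4 germin-like genes with a single-gene probe set above the floor and of 2 probe sets shared by several germin-like genes, with mock-treated roots as grey circles, P. indica-exposed roots as red squares and the floor of 22.2 as a dotted line, 1 array per point. At 2 d AT5G38910 stands at 5.9 in mock and 547 in exposed roots and AT1G18980 at 268 and 614, while AT3G10080 stays between 78.3 and 100.2.

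AT5G38900 was set beside genes for other proteins with a thioredoxin fold and for enzymes that reduce them. Of 21 listed genes 6 have a named probe set, of which 5 could be counted. Besides AT5G38900, a glutaredoxin gene of the salicylic acid response, GRX480 (AT1G28480), passed 2-fold at 2 d, from 40.9 on the mock to 90.4 on the exposed array. At 6 d its signals were 35.8 and 65.9. Its exposed signals therefore differed more between the times than its mock signals, with log2 differences of -0.46 and -0.19 between 6 d and 2 d, a course unlike that of AT5G38900. The gene with the highest signals of the list, glutaredoxin GRXC2 (AT5G40370), had signals of 880 and 925 at 2 d and of 1221 and 1296 at 6 d, so that exposed and mock roots differed by 1.05-fold and 1.06-fold. GRXC1 (AT5G63030) had log2 ratios of 0.30 and 0.09, and PDIL5-1 (AT1G07960), a gene of the protein disulfide isomerase family, had -0.48 and -0.23. ROXY1 (AT3G02000) stayed under the floor. The median of the 5 counted genes was 0.30 at 2 d and 0.09 at 6 d, beside -0.03 and -0.02 over all counted probe sets. AT5G38900, chosen with its ratios known, is one of the 5, so the median is not an independent description of the list.

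Enzymes that form or remove superoxide and H2O2 could hardly be assessed, because the annotation used here names few of their probe sets. Probe sets without a gene in this annotation were not searched for them. Of 18 listed genes, which include NADPH oxidases, superoxide dismutases, catalases and ascorbate peroxidases, 1 has a named probe set. This gene, the NADPH oxidase gene AT1G19230, had signals of 48.9 and 67.4 at 2 d and of 48.3 and 52.9 at 6 d, in mock-treated and exposed roots, respectively. The corresponding log2 ratios were 0.46 and 0.13.

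To see how far the difference extended along the chromosome, the 10 annotated genes on either side of the pair were examined together with the 2 that are annotated between AT5G38900 and AT5G38910, a tRNA gene and an antisense RNA that overlaps AT5G38900. Of these 22 genes 10 have a single-gene probe set, 3 share a probe set with another gene, and 9 have none in the annotation used here. At each time 6 of the 10 were counted, and none passed 3-fold in either direction. Over all counted probe sets, 0.29% at 2 d and 0.107% at 6 d were more than 3-fold higher. More than 3-fold lower were 8 at 2 d and 0 at 6 d. With shares this small, the absence among 6 genes does not set the neighbours apart from other genes. The direct neighbour of AT5G38900, AT5G38895, whose annotated end overlaps it, had signals of 102 and 111 at 2 d and of 111 and 116 at 6 d. Next to it, AT5G38890 had signals of 131 and 132 at 2 d and of 111 and 108 at 6 d. The difference therefore did not extend to the next genes on this side, with log2 ratios of 0.11 and 0.06 for AT5G38895 and of 0.02 and -0.04 for AT5G38890. Whether the antisense RNA contributes to the probe set of AT5G38900 was not tested.

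Further away on this side AT5G38840 had log2 ratios of 0.04 and -0.16, and AT5G38830 was lower in exposed roots at both times, with -0.39 and -0.37. AT5G38820 was above the floor in 2 d exposed roots alone, with a signal of 28.5, and AT5G38870 in 6 d exposed roots alone, with 25.5. On the side of AT5G38910 the first gene with a counted single-gene probe set was AT5G38980, whose signal was 31.3 and 32.8 at 2 d and 133 and 202 at 6 d. Its ratio was 1.05-fold at 2 d and 1.52-fold at 6 d, and thus larger at the later time. Over the neighbours counted by a single-gene probe set the log2 ratios ran from -0.39 to 0.36 at 2 d. At 6 d they ran from -0.37 to 0.61, and the medians at the 2 times were 0.05 and 0.01. The probe set shared by 2 germin-like genes that follow AT5G38910 lies outside this count. Its log2 ratio was 0.70 at 2 d, above the range, and 0.32 at 6 d.

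**Figure D4:**
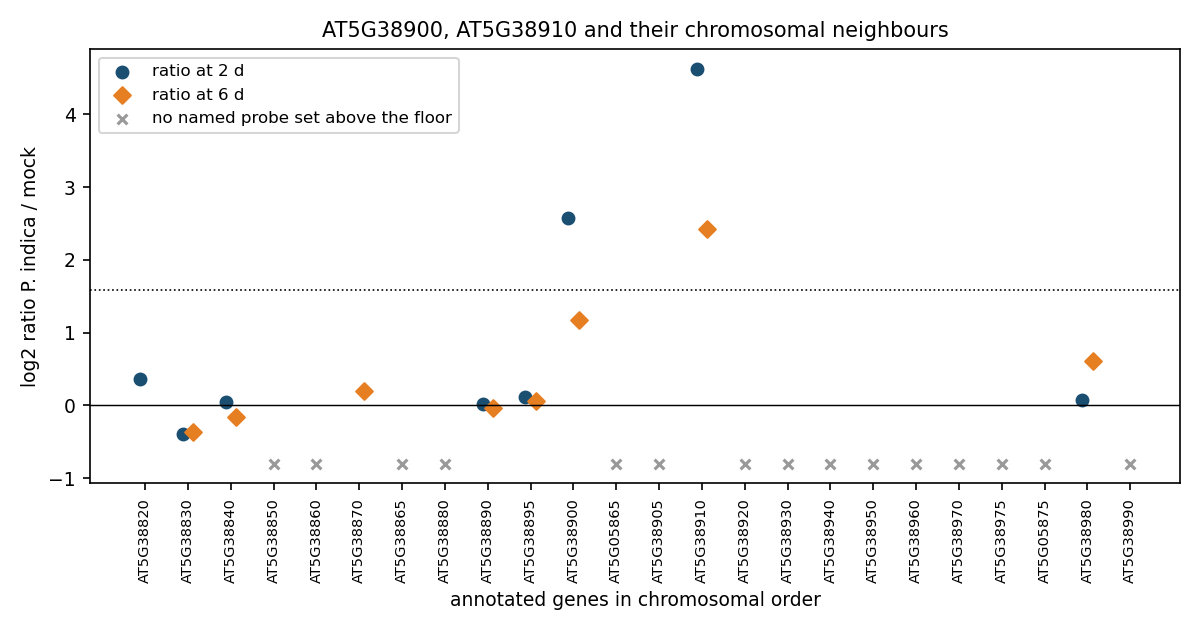
Log2 ratio of P. indica-exposed over mock-treated roots at 2 d (blue circles) and 6 d (orange diamonds) for AT5G38900, AT5G38910, the 10 annotated genes on either side and the 2 between them, in chromosomal order, with grey crosses for genes without a named probe set above the floor and a dotted line at 3-fold. AT5G38900 and AT5G38910 stand at 2.57 and 4.62 at 2 d, while the neighbours counted by a single-gene probe set lie between -0.39 and 0.36. Genes on a shared probe set are among the crosses.

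Adjacent genes were also counted over the whole genome. Among 2323 pairs of adjacent protein-coding genes with both genes counted at 2 d, 15 had at least 1 gene more than 3-fold higher, and in 2 of them both genes were. One is AT5G38900 with AT5G38910, which were chosen with these ratios known, so that its place in the count is a description alone. The other is AT1G26380 with AT1G26390, a pair of FAD-linked oxidase genes of the berberine bridge enzyme type, with at least 13.4-fold and 19.1-fold higher signals. At 6 d 1 of 2330 pairs had both genes past 3-fold, the oxidase pair, and 4 had both genes past 2-fold, AT5G38900 with AT5G38910 among them.

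Genes with a similar course were searched for among 7505 further genes with signals above the floor on at least 2 arrays. Likeness was measured as the Euclidean distance between the 4 log2 signals, set to the floor where they lay under it, after subtraction of each gene's mean, so that a small distance means a similar shape over the 4 arrays. Closest to AT5G38910 was AT1G26390 with a distance of 0.40, or 1.18 without a floor, since the 2 d mock signals of both genes lay under it. Its mock and exposed signals were 13.5 and 424 at 2 d, and 92.7 and 410 at 6 d. Thus, in this gene too, the 2 d mock signal lay under the floor, the 6 d mock signal was well above it and the exposed signals were nearly equal. AT1G26380 followed with a distance of 1.05, the class III peroxidase gene AT5G39580 with 1.46, the chitinase gene AT2G43570 with 1.66 and AT5G38900 with 1.73.

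Closest to AT5G38900 was AT2G15220, a gene for a plant basic secretory protein, with a distance of 0.16. This gene had mock and exposed signals of 224 and 1155 at 2 d, and of 428 and 996 at 6 d. The ratios of 5.15-fold at 2 d and 2.33-fold at 6 d were near those of AT5G38900, although the probe set carries a suffix for possible cross-hybridization. The chitinase gene AT2G43570 (0.49), the acyltransferase gene AT5G42830 (0.49), AT3G18250 (0.50) and AT4G37290 (0.62), which codes for the precursor of a secreted peptide induced by microbial patterns, came next. AT5G38910 was at position 330 in the order of likeness to AT5G38900, since its ratios were larger. The distances rest on 4 arrays, describe shape alone and depend on the floor. Without a floor AT3G55790 was closer to AT5G38910 (0.50) than AT1G26390, and under the higher floor (60th percentile) the chitinase gene AT2G43590 was closest to AT5G38900 (0.19). Under the lower floor (20th percentile) AT3G24510 was closest to AT5G38900 (0.057). These settings were added after the data were seen, and the 3 genes are named beyond the rule.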

How the data were processed

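The authors' deposited values are linear intensities (MAS5 signals) for 22810 probe sets on 4 ATH1 arrays, 1 per condition. MAS5 is given in the submitters' processing notes with no version. The paper names ROBIN and a t-test over 3 experiments, which 4 single arrays do not allow, so no test was computed and the precision is limited by the number of arrays. After removal of 64 control probe sets, signals below 22.2 were set to this floor, log2 ratios were formed within each time point, and probe sets with the brighter array above the floor were counted. The limit of 3-fold follows the paper. Counting was tested on simulated data, but the outcome is not given here. That test therefore lends no weight to the ratios and counts reported.

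The platform annotation, updated through Entrez Gene identifiers to TAIR10.1, gives 13513 probe sets 1 gene, 503 several and 8730 none, and 13484 of the first kind have a locus code. For a gene with more than 1 probe set the brightest was used. Gene order and overlaps come from the TAIR10.1 coordinates, and sequences were not used here. Groups were taken from the sample labels. A free-text label about embryos does not match the study and was ignored.

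Both genes, the gene lists and the settings were chosen with earlier results of these data known. Named genes are AT5G38910 and AT5G38900, counted germin-like genes and neighbours, members of the other lists past 1.5-fold or with the highest signal, and the 5 genes nearest in shape. A list of reference genes was also made but is not described, so its members are not named. RCA, GRXC1, ROXY1, PDIL5-1, EXPA7 and AT1G19230 are named beyond this rule, after their values were seen. The alternatives comprised a lower floor (20th percentile), a higher floor (60th percentile), no floor, centring, quantile normalization, loess (span 0.3), 32 added to every signal, limits of 2-fold and 4-fold, and probe sets without cross-hybridization suffix. Python 3.11.15, numpy 2.4.6, pandas 2.3.3, statsmodels 0.14.6 and matplotlib 3.10.9 were used.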

Additional observations from a re-analysis of the deposited data

Results flagged for a closer look

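Among the 4 germin-like genes and those chromosomal neighbours that were counted at both times, 3 had ratios of opposite direction at the 2 times. Each condition has 1 array, so the differences were not tested. The log2 ratio of the germin-like gene AT3G10080 was 0.20 at 2 d but -0.014 at 6 d. For AT5G38840 the ratios were 0.040 and -0.16, and for AT5G38890 they were 0.018 and -0.040. The middle range of all counted probe sets, as given above, ran from -0.58 to 0.60 at 2 d and from -0.51 to 0.56 at 6 d. The ratios of all 3 genes lay within it, so their changes of sign do not stand out from this spread. The share of all counted probe sets with opposite signs at the 2 times was not computed.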

How the results depend on the processing

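In every setting tried AT5G38910 and AT5G38900 were higher in exposed than in mock roots at both times and the larger ratio at 2 d. Their 6 d ratios moved by less than 1.5-fold in every setting. The log2 ratio of AT5G38910 at 2 d was 6.53 with the lower floor (20th percentile) or with none, 3.15 with the higher floor (60th percentile) and 3.93 with 32 added. That of AT5G38900 at 2 d was 1.52 and 1.75 under the latter settings. The difference of the log2 ratios between 2 d and 6 d was 4.11 for AT5G38910 with the lower floor or none, and 0.73 with the higher floor, where that of AT5G38900 was 0.34.

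The counts of probe sets past the limit followed the floor. At 2 d 41 were higher and 8 lower, against 95 and 27 with the lower floor, 20 and 3 with the higher floor, 1112 and 799 without a floor, 21 and 1 with 32 added, 104 and 40 at 2-fold and 22 and 1 at 4-fold. At 6 d 15 were higher and 0 lower, against 58 and 19 with the lower floor and 1240 and 1029 without a floor. With the higher floor 8, with 32 added 3 and at 4-fold 5 were higher, and at 2-fold 64 were higher and 6 lower. Of the 12 germin-like genes with a single-gene probe set 1 was past the limit at 2 d and at 6 d. Without a floor the counts were 4 and 3, and at 2-fold the count was 2 at 2 d. Without a floor, ratios of signals near 0 enter these counts. Quantile normalization, centring, loess and the removal of probe sets with a suffix left all counts within 1.5-fold. No paired analysis was possible because each condition has 1 array. A 2 d mock signal of AT5G38910 under the floor leaves its 2 d ratio as a bound.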
